A study of Bos taurus with 6 samples.

Results

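PPARGC1A, the gene ENSBTAG00000017024, was followed across the longissimus dorsi, a long back muscle, of 6 Hanwoo (Korean cattle) males. It is 1 of the 24616 Ensembl gene rows counted in each library, and it was taken by its ID. The Ensembl ID and the symbol are paired by the rule that selected the gene, since neither the count files nor the reference table pairs Ensembl IDs with symbols. The study set 3 bulls, which are intact males, against 3 steers, which are castrated males, with 1 poly(A) RNA library per animal. Bulls 20, 22 and 23 were all 746 days old. Steer 439 was 996 days old, Steer 456 was 950 days old and Steer 458 was 930 days old. The youngest steer was older than the bulls, and effects of age and of castration cannot be told apart. No treatment or allele is labelled in any animal. The defining markers of muscle were not checked, because the other IDs carry no symbols here.

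PPARGC1A encodes PGC-1alpha, a transcriptional coactivator. It does not bind DNA by itself but is recruited by transcription factors, among them the estrogen-related receptors, the nuclear respiratory factors and the PPAR family. Through them it raises the expression of genes for mitochondria, the respiratory chain and fatty acid oxidation. In skeletal muscle it is known for its induction by exercise, through AMP-activated kinase and calcium signalling, and for higher levels in oxidative than in glycolytic fibres. The gene has more than one promoter and several transcript forms, and a gene-level read count adds them together. RefSeq lists 12 transcripts for bovine PPARGC1A on the assembly ARS-UCD2.0, 1 of them curated and 11 predicted. On that assembly its span also holds 2 small noncoding genes, a transfer RNA gene and a small nuclear RNA gene, and the protein-coding gene DHX15 is a neighbour.

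The libraries held between 17027226 and 27490776 gene counts. Scaling factors by the trimmed mean of M values (TMM) lay between 0.889 and 1.08. Steers 456 and 458 stood apart from the other 4 animals across the 12769 genes that passed the filter on low counts. In Steer 456, 238 genes were at least 2-fold below all other animals and 628 at least 2-fold above them. In Steer 458 these counts were 227 and 42, and in each of the other 4 animals 23 to 55 and 12 to 34. Results are therefore also given without Steer 456 and without Steer 458.

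PPARGC1A was well detected in 5 animals and low in the muscle of 1 steer. Levels are given as CPM, counts per 1e6 gene counts of the library, with exact 95% Poisson intervals that cover counting error only. Bull 20 had 713 reads, or 32.8 CPM (30.5 to 35.3). Bull 22 had 508 reads, or 26.4 CPM (24.2 to 28.8). Bull 23 had 954 reads, or 48.9 CPM (45.9 to 52.1). Bull 23 was thus the highest of the bulls, and its interval did not meet those of the other two.

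Among the steers, PPARGC1A covered a far wider range. Steer 439 had 712 reads, or 28.7 CPM (26.6 to 30.9). Steer 456 had 75 reads, or 4.40 CPM (3.46 to 5.52). Steer 458 had 1322 reads, or 48.1 CPM (45.5 to 50.8). Steers 439 and 458 lay inside the range of the bulls in CPM by library size, and Steer 456 lay below all other animals. Scaled by TMM, Steer 458, at 54.1 CPM, lay above the highest bull, Bull 23, at 45.5 CPM. In bulk RNA, fewer cells with the transcript and less transcript per cell cannot be told apart.

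Ordered by level, bulls and steers alternated: Bull 23, Steer 458, Bull 20, Steer 439, Bull 22 and Steer 456. By library size alone, Bull 23 and Steer 458 did not differ beyond counting error, with a ratio of 1.02. Its exact 95% interval, from the binomial split of their reads, was 0.935 to 1.11. Nor did Steer 439 and Bull 22 differ in this way, with a ratio of 1.08 (0.967 to 1.22). Steer 458 was 1.47 times Bull 20 (1.34 to 1.61), and Bull 20 was 1.14 times Steer 439 (1.03 to 1.27). The last step was the widest, since Bull 22 was 6.0 times Steer 456 (4.70 to 7.75). These intervals compare single libraries and not the groups. After TMM scaling Steer 458 was first with 54.1 CPM and Bull 23 second with 45.5 CPM, and the other places were as before. No interval was computed after TMM, so the lack of a difference between Bull 23 and Steer 458 holds for library size alone.

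The low value of Steer 456 also stood out without any scaling to library size. Among the 12769 tested genes, ordered by reads within each library and not adjusted for gene length, PPARGC1A ranked 3023 in Bull 20, 3653 in Bull 22 and 2271 in Bull 23. It ranked 3351 in Steer 439 and 2159 in Steer 458, but 9108 in Steer 456. With scaling to library size, at the CPM of the next lowest animal, the library of Steer 456 would have held 450.1 reads, against the 75 counted.

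Bulls and steers were not distinguished by PPARGC1A. The level was 36.1 ± 11.6 CPM in bulls and 27.1 ± 21.9 CPM in steers (SD, n = 3), a difference of 9.01 CPM (exact 2-sided permutation p = 0.6, where 3 animals against 3 cannot go below 0.1). In the edgeR quasi-likelihood test over all genes, the log2 fold change, bull minus steer, was 0.25 ± 0.71 (SE), with an unadjusted p of 0.731 and a Benjamini-Hochberg adjusted p of 0.868. The gene was not called, while 4.10% of the tested genes were (adjusted p under 0.05), and 84.1% of them had a smaller p. Its groups overlapped, whereas those of 29.6% of tested genes did not. DESeq2 did not call it either (log2 fold change 0.25 ± 0.64 SE, adjusted p = 0.870), and there 11.8% of genes were called.

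A missed threshold does not show equal levels. The 95% interval of the fold between bulls and steers ran from 0.383 to 3.71 in the edgeR fit. A difference of 2-fold in either direction lies inside this interval.

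The direction of the group difference rested on Steer 456. Without it, the 2 other steers averaged 38.4 CPM against 36.1 CPM in bulls, and the difference in means became -2.32 CPM (exact 2-sided permutation p = 0.8). The edgeR log2 fold change turned from 0.25 to -0.25 ± 0.32 (SE; adjusted p = 0.647), in a fit that called 7.77% of its genes. The interval of the fold then narrowed to 0.498 to 1.41. Without Steer 458 the log2 fold change rose to 1.06 ± 0.72 (SE; edgeR adjusted p = 0.445), and without Bull 23 it was 0.01 ± 0.80 (SE; edgeR adjusted p = 0.995). The gene passed in none of the 17 fits, and the 95% interval held 0 in all 17.

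The size of the difference also moved with the kind of average. The bull mean was 1.33 times the steer mean, the bull median was 1.14 times the steer median (32.8 against 28.7 CPM), and the geometric mean of bulls was 1.91 times that of steers (34.9 against 18.2 CPM). A geometric mean gives a single low value more weight. limma voom, which averages log values, gave a log2 fold change of 0.80 ± 0.78 (SE; limma adjusted p = 0.603), and with 1 weight per library it gave 0.22 ± 0.63 (SE; limma adjusted p = 0.865).

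**Figure D1:**
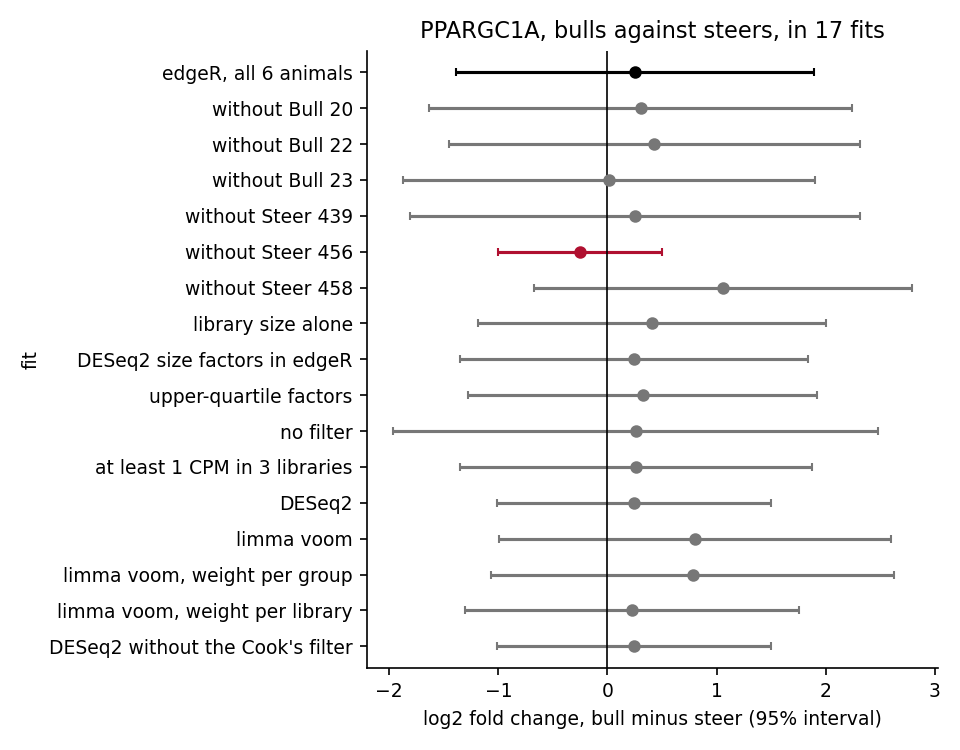
Log2 fold change of PPARGC1A, bull minus steer (x axis), in each fit (y axis). Points are estimates and bars are 95% intervals. All 17 intervals hold 0, and the fit without Steer 456, in red, is the one whose estimate is below 0, at -0.25.

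The spread of PPARGC1A within the groups was wide beside that of other genes. The SD of its log2 CPM (TMM-scaled) was 1.90 among steers, against a median of 0.39 over all tested genes, and 83 of 12769 genes (0.650%) had a larger one. Among bulls its SD was 0.41, against a median of 0.18, and 15.6% of tested genes had a larger one. Low counts widen such spreads, so the same was read among the 8632 tested genes with a mean of at least 5 CPM. There, 35 genes exceeded its SD in steers and 593 exceeded its SD in bulls. The coefficient of variation of its CPM was 80.9% in steers and 32.2% in bulls. In the 2 steers left without Steer 456 it was 35.8%.

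**Figure D2:**
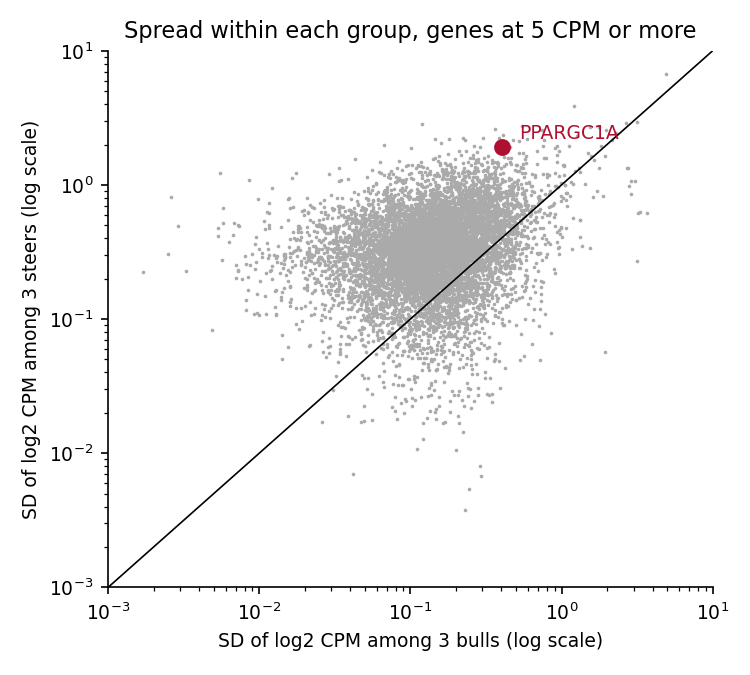
SD of log2 CPM among the 3 bulls (x axis, log scale) and among the 3 steers (y axis, log scale) for each of 8632 genes with a mean of at least 5 CPM. Points are genes, the line marks equal SDs, and PPARGC1A, in red, lies at 0.41 and 1.90.

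PPARGC1A also varied between the 2 other steers. Steers 439 and 458 differed 1.68-fold in CPM (exact 95% interval 1.53 to 1.84), and the highest and the lowest bull differed 1.85-fold (1.66 to 2.07). On the log2 scale after TMM, the difference between these steers was 0.90 and was exceeded by 13.5% of tested genes. The range of the 3 bulls was 0.81 and was exceeded by 14.3% of them. The SD of log2 CPM was 0.63 for these 2 steers and 0.41 for the 3 bulls, and this difference was not tested.

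The low value of Steer 456 was among the most marked of that library. Its PPARGC1A lay 2.59 log2 units below the lowest other animal (TMM-scaled). Of the 8632 genes with a mean of at least 5 CPM, 141 lay at least 2-fold below all other animals in Steer 456, and the gap of PPARGC1A was the fifth widest. Over all 12769 tested genes it ranked 8. This measure was chosen after the values of the gene had been seen and carries no test.

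**Figure D3:**
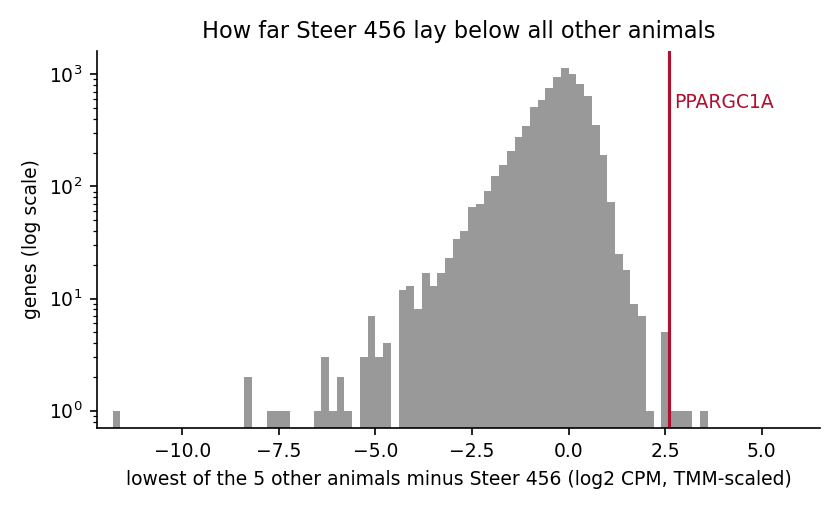
Lowest of the other 5 animals minus Steer 456 in log2 CPM (x axis) for 8632 genes with a mean of at least 5 CPM (y axis, number of genes, log scale). Values above 0 mean that Steer 456 was the lowest animal. PPARGC1A, at 2.59, lies near the right end.

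Measures of the library of Steer 456 stand beside that value. It was the shallowest library, with 17027226 gene counts, and counting error alone gives its 75 reads a coefficient of variation of 11.5%. It had reads for 15641 genes, between the 15127 of Steer 458 and the 15999 of Bull 22. Multiply placed alignments were 27.4% of its counted lines, within the 16.9% to 28.2% of the other animals. Reads that HTSeq assigned to no feature were 12.2%, the highest share, against 10.2% to 12.02% in the others. By age it was the middle steer. The part of these measures in the low value was not tested.

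Genes with a pattern like that of PPARGC1A were sought among those with a mean of at least 5 CPM. The measure was the Pearson correlation of TMM-scaled log2 CPM over the 6 libraries. The levels of single genes given below are CPM by library size, on which r would differ. No r was computed by library size alone. The points share library depth and group, and r is a description. Of 8631 genes, 451 (5.23%) had r of at least 0.9 and 223 had r of -0.9 or less. The median gene of this set had 189 partners at r of at least 0.9, and 15.9% of genes had more partners than PPARGC1A. The profile of PPARGC1A is set mainly by its low value in Steer 456, so the 451 genes, chosen for likeness to it, were all lowest in that animal by this choice. Of the 451, 63 lay at least 2-fold below every other animal there, against 141 of all 8632 genes with a mean of at least 5 CPM. The choice favours genes that are low in Steer 456, so this too is no separate result. Without Steer 456, 70 genes reached r of at least 0.9 over the 5 libraries left. Of the 50 genes nearest to PPARGC1A, 9 were then still among the nearest 50. This number was 33 without Bull 20, 26 without Bull 22 and 20 without Bull 23. It was 18 without Steer 439 and 13 without Steer 458, so the nearest genes changed with every animal left out. Leaving out an animal other than Steer 456 gave more genes at r of at least 0.9. They were 610 without Bull 20, 684 without Bull 22 and 685 without Bull 23. Without Steer 439 there were 858, and without Steer 458 there were 1105. A limit of 0.9 is easier to reach over 5 libraries than over 6, and partners of the median gene were not counted there.

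The most similar gene, ENSBTAG00000015567, had r of 0.997, and 0.965 without Steer 456. Its level was 60.7, 59.1 and 73.7 CPM in Bulls 20, 22 and 23, and 61.9, 35.6 and 65.4 CPM in Steers 439, 456 and 458. The next, ENSBTAG00000011694, had r of 0.996, and 0.960 without Steer 456. Its level was 105 CPM in Bull 20, 95.6 in Bull 22 and 120 in Bull 23, and 94.9, 59.9 and 101 CPM in Steers 439, 456 and 458. Both genes were low in Steer 456 and high in Bull 23, like PPARGC1A, but over a much narrower range.

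The most opposite gene, ENSBTAG00000026199, had r of -0.997, and -0.969 without Steer 456. Its level was 335 CPM in Bull 20, 371 in Bull 22 and 352 in Bull 23, and 354, 577 and 278 CPM in Steers 439, 456 and 458. ENSBTAG00000003815 followed with r of -0.989, and -0.934 without Steer 456. Its level was 9.39, 9.89 and 9.03 CPM in Bulls 20, 22 and 23, and 8.94, 13.7 and 7.31 CPM in Steers 439, 456 and 458. Both were highest in Steer 456 and lowest in Steer 458. Between bulls and steers, the edgeR adjusted p of these 4 genes lay between 0.618 and 0.813. These genes were chosen by their correlation with PPARGC1A, which was not called either, so this is no separate result. The r without Steer 456 comes from libraries by which these 4 genes were chosen, so it is no separate result either.

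**Figure D4:**
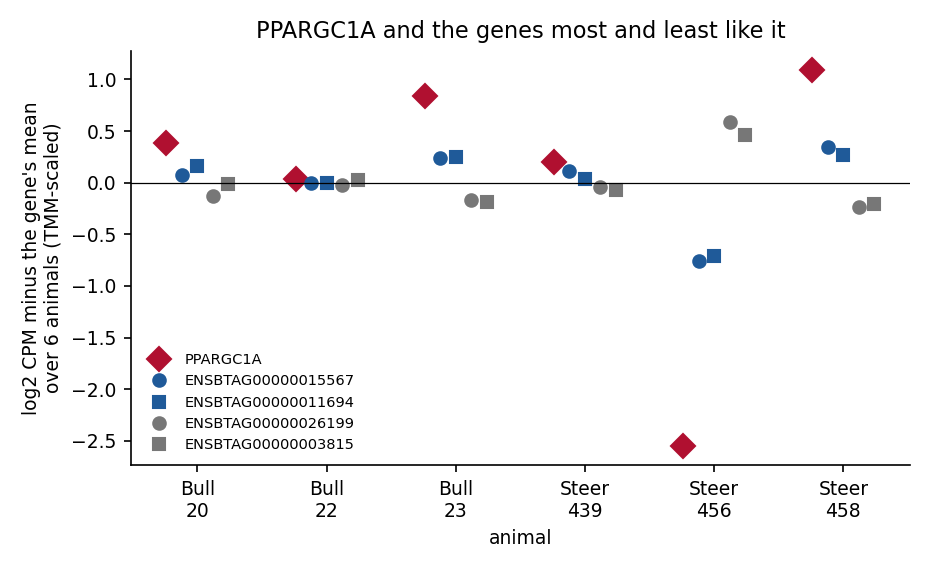
Log2 CPM minus each gene's mean over the 6 animals (y axis, TMM-scaled) for each animal (x axis). Red diamonds are PPARGC1A, blue symbols the 2 most similar genes and grey symbols the 2 most opposite ones. In Steer 456 the red and blue symbols lie below 0 and the grey ones above it.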

How the data were processed

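The authors deposited raw read counts per Ensembl gene, 1 file per animal and not normalized. FastQC, TopHat2 (2.0.2), HTSeq (0.5.3p3) and the build UMD3.1 are named, with no role given, in the submitters' processing notes. Strand handling, overlap mode and annotation version were "not given in the sources used here". Reads from genes that overlap PPARGC1A, on either strand, can therefore not be separated from its own. The 5 HTSeq summary rows, 29.3% to 39.9% of all lines counted, stayed out of library sizes and tests.

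Groups came from the sample titles, which number each animal. Where preparation was shared is not stated, and p-values set the group difference against variation between these samples. The fit took all 6 libraries, with group as the only term, in edgeR 4.0.16 (R 4.3.3). It used filterByExpr (12769 genes kept, 99.9% of gene counts), TMM factors and the robust quasi-likelihood F test, with p-values adjusted by Benjamini-Hochberg across these genes (threshold 0.05). The SE was derived from the log2 fold change and F. Log2 CPM used a prior count of 2. Alternatives were other scalings and filters, DESeq2 1.42.0, limma 3.58.1 and leaving out each animal. The fits were tested on simulated data.

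The gene and all lists were chosen with earlier results of these data known. The 13 pathway lists and 9 marker lists could not be used: 0 of 37063 rows in the reference table carry an Ensembl ID, so 0 of the 24616 IDs matched. The rule for named genes gave PPARGC1A and the 2 highest and 2 lowest correlations. The table's assembly, ARS-UCD2.0, differs from the build of the files, so no coordinates are given.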

Additional observations from a re-analysis of the deposited data

Results flagged for a closer look

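Lines that HTSeq assigned to no gene enter no test between bulls and steers here. Multiply placed alignments had a median share of 26.8% of the counted lines, from 16.9% in Steer 439 to 28.2% in Bull 22. A count of 0 for a gene would still allow 3 reads. PPARGC1A had no such count, and its lowest was 75 reads, in Steer 456. Gaps of single animals within a group were not examined by Dixon's ratio, since both groups hold 3 animals.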

How the results depend on the processing

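PPARGC1A stayed above the adjusted p of 0.05 in each of the 16 alternatives and kept its direction in 15 of them. The log2 fold change ran from 0.22 to 0.80 over the fits of all 6 animals and from -0.25 to 1.06 with 1 animal left out. The value below 0 came without Steer 456. The difference in mean CPM also turned there, to -2.32 CPM. It ran from -2.32 to 19.5 CPM with 1 animal left out and from 5.43 to 12.8 CPM under other scalings. The weights per library, DESeq2 without its Cook's filter and the likeness with 1 animal left out were added after seeing the data.

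The count of genes called between the groups, 524 with all animals, ran from 7 to 1019 with 1 animal left out. At an unadjusted p under 0.05 it was 2866. DESeq2 called 1507, or 1514 without its Cook's filter, weights per library called 894, and an adjusted p under 0.10 called 1328. Genes higher in bulls were 49.8% of the calls with TMM and 66.6% with library size alone. The 451 genes at r of at least 0.9 became 72 with Spearman's rho and 976 with residuals from the group means. They ran from 70 to 1105 with 1 animal left out. With residuals the median gene also had more partners, 346 against 189. Of the nearest 50 genes, 20 stayed with Spearman's rho and 17 with residuals. The cause of these changes was not tested. The pathway lists were not run, for want of symbols. No paired analysis was possible because the bulls and steers share no replicate number. Counting error gave the reads of PPARGC1A a coefficient of variation of at most 11.5% per library. This was less than the 32.2% between bulls and the 80.9% between steers, or 35.8% between steers without Steer 456. More depth would therefore narrow the comparison of the groups little.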
